A study of Mus musculus with 12 samples.

Results

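The genes described here are 10 genes of MHC class II antigen presentation and of dendritic cells, Cd74, H2-Aa, H2-Ab1, H2-Eb1, Ciita, Cd80, Cd86, Cd83, Cd40 and Ccr7. They were chosen by name, and all 10 were found among the 24411 gene symbols of the deposited table of normalised read counts. A mean of at least 10 normalised read counts over the 12 libraries was needed for a test, which 4 of the 10 genes and 11484 genes in all reached. RNA was sequenced from BALB/c mouse bone marrow cells made leukaemic by retroviral expression of mutant CSF3R, a growth factor receptor, and mutant CEBPA, a myeloid transcription factor. The cells were treated for 24 h in culture with 2 nM GSK-LSD1 and 50 nM ruxolitinib together, with 2 nM GSK-LSD1 alone, with 50 nM ruxolitinib alone, or with the solvent DMSO, in 3 libraries each. GSK-LSD1 inhibits the histone demethylase LSD1, and ruxolitinib inhibits the kinases JAK1 and JAK2. All 4 groups carry both mutant genes, so the drugs were compared within leukaemic cells only. The labels do not say whether the 3 libraries of a group came from separate cultures, and p-values therefore measure the spread between these libraries, which may be technical.

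MHC class II molecules are pairs of an alpha and a beta chain that show peptides from internalised proteins to CD4+ T cells. The chains are assembled with the invariant chain Cd74, peptides are loaded with the help of H2-DM, and transcription of the genes depends on the coactivator Ciita. Dendritic cells and other antigen-presenting cells carry these molecules together with the co-stimulatory proteins Cd80, Cd86 and Cd40, and mature dendritic cells display Cd83 and follow the chemokine receptor Ccr7 to lymph nodes.

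Promoters of class II genes share an X box and a Y box at which the factors that recruit Ciita bind, and the stretches below are shown because these 3 genes span the range of levels seen in the cells, with H2-Aa at 0, H2-Eb1 near 0 and H2-Oa above both. The sequences are from RefSeq (GRCm38.p6), are written 5′ to 3′ on the strand of the gene, and lie before its start in RefSeq. The stretches of H2-Aa and H2-Eb1 run from 150 bases to 1 base before that start and the stretch of H2-Oa from 188 to 39 bases before it, and the last base of the H2-Oa stretch is the first base of the gene in the annotation used for gene positions. H2-Aa is at chr17:34287824-34287973 on the minus strand, H2-Eb1 at chr17:34305717-34305866 and H2-Oa at chr17:34092191-34092340, both on the plus strand. Capitals mark CCAAT or its reverse complement ATTGG (the core of the Y box). They also mark ACNGATG, searched for as the core of the X box, and TGACGTCA, a cyclic AMP response element.
H2-Aa: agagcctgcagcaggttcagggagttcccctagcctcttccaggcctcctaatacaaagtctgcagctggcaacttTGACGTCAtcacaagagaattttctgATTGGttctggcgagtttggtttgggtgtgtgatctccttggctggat
H2-Eb1: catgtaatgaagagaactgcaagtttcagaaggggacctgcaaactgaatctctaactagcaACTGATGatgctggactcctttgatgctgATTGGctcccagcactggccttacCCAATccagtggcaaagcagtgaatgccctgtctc
H2-Oa: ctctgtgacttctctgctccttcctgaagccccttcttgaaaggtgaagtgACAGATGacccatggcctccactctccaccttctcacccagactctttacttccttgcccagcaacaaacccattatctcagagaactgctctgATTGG
Each motif was searched on both strands of windows of 250 bases before to 50 bases after the start. No matches of different motifs overlap in the windows of the 8 class II genes. A gene was counted if any of its windows held a match. CCAAT stood in all 8 class II genes that had a window and in 37.4% of all 32851 promoter windows. For H2-DMa it stood in the window that begins at 34125268 and not in that at 34122582. ACNGATG stood in 6 of the 8 and in 9.85% of all windows. In H2-Eb1 the first letter of ACNGATG lay 29 bases before that of the nearer CCAAT, as in H2-Eb2, and the distance was 30 bases in H2-DMb1 and H2-DMb2. It was 94 bases in H2-Oa and 184 bases in H2-Aa, whose ACNGATG is on the other strand and outside the stretch shown. Whether the matches in H2-Oa and H2-Aa are the X boxes of these genes was not tested. TGACGTCA, looked for after the windows had been read, stood in H2-Aa alone among the 8 and in 1.79% of all windows. In H2-Aa it began 74 bases before the start, and ATTGG began 48 bases before the start. Whether this TGACGTCA is part of an X box was not tested. AAATCA, the core of a site of the repressor GFI1, stood in H2-Oa alone among the 8 and in 14% of all windows. These matches describe letters in the windows and say nothing of binding. Of the 10 genes chosen by name, 3 had a window in the table used, H2-Aa, H2-Eb1 and Cd80.

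The values of each library were whole multiples of a single step of 0.9865 to 1.027 normalised read counts, and these steps, the worth of 1 read if counts had been divided by a factor, summed to 8260995 to 8528400 per library. A count of 0 allows up to 3 steps, or 2.96 to 3.08 normalised read counts depending on the library. Libraries with GSK-LSD1 and libraries without it lay at opposite ends of the first principal component (54.7% of the variance). Ruxolitinib replicate 2 and combination replicate 3 lay apart from the rest on the second component (11.1%), at -19.7 and -17.3. Where leaving out these libraries changes a call of the 10 genes, both values are given. All 8 markers of myeloid progenitors and granulocytes had a mean of at least 10, as the label of the cells asks. Of 16 defining markers of dendritic cells, 8 had a mean under 1, Ccl22 was at 0 in all 12 libraries, and 3 reached the level needed for a test (Irf8, Id2 and Tcf4). The list thus names the genes and not the cells measured.

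GSK-LSD1 raised 3 of the 4 tested genes, Cd74, Cd86 and Ccr7, and the same 3 were higher after the combination. H2-Ab1 was detected in every library but passed no test, and the other 6 genes stayed low or near zero under every treatment. By limma with Benjamini-Hochberg adjustment over all 11484 genes, 3 of the 4 passed against DMSO after GSK-LSD1, where 32.5% of all tested genes did and 17% were higher. After the combination 3 of 4 passed, against 42.3% of all tested genes (20.5% higher). The median log2 fold change of the 4 genes was 1.36 after GSK-LSD1 and 1.06 after the combination, and that of all tested genes lay between -0.01 and 0.00. The libraries of the groups did not overlap, and were higher than DMSO, for 3 of the 4 genes after GSK-LSD1 (24.4% of all tested genes) and for 3 after the combination (24.9%). In RNA from whole cultures, more cells of a type and more RNA per cell cannot be told apart.

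Cd74, the invariant chain, which holds new class II molecules together and is also a surface receptor for the cytokine MIF (chromosome 18, 60803848 to 60812652, plus strand, GRCm38), had 46.6, 47.4 and 48.7 normalised read counts in the combination libraries, 54.9, 51.8 and 54.8 in the GSK-LSD1 libraries, 22.9, 18.5 and 16.8 in the ruxolitinib libraries and 18.9, 17.0 and 21.8 in the DMSO libraries. Every library with GSK-LSD1 was above every library without it, and ruxolitinib libraries overlapped DMSO libraries. The log2 fold change was 1.45 ± 0.19 (SE) after GSK-LSD1 (limma adjusted p = 7.52e-06) and 1.27 ± 0.19 after the combination (limma adjusted p = 1.96e-05), or 2.72-fold after GSK-LSD1 and 2.41-fold after the combination. Ruxolitinib alone gave 0.01 with a 95% interval of -0.39 to 0.41 (limma adjusted p = 0.988).

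H2-Ab1, the beta chain of the class II molecule H2-A (chromosome 17, 34257689 to 34269419, plus strand), had 57.5, 55.2 and 45.7 normalised read counts in the combination libraries, 64.9, 47.8 and 53.8 in the GSK-LSD1 libraries, 47.8, 53.4 and 65.2 in the ruxolitinib libraries and 52.6, 42.0 and 53.5 in the DMSO libraries. The 4 groups overlapped throughout. The log2 difference from DMSO was 0.10 after the combination (95% interval -0.27 to 0.46, limma adjusted p = 0.688), 0.16 after GSK-LSD1 (-0.20 to 0.53, limma adjusted p = 0.514) and 0.16 after ruxolitinib (-0.20 to 0.53, limma adjusted p = 0.67). The intervals include both falls and rises, so a small change in either direction was not detectable with 3 libraries per group.

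The partner chain of H2-Ab1, H2-Aa (chromosome 17, 34282744 to 34287823, minus strand), was at 0 in all 12 libraries, 0 of 100344762 steps in all. H2-Eb1, the beta chain of the class II molecule H2-E (chromosome 17, 34305867 to 34316674, plus strand), had a single step, in GSK-LSD1 replicate 2. Ciita, the coactivator of class II transcription (chromosome 16, 10480059 to 10528418, plus strand), had 7 steps in 6 libraries. They fell as 2 in the combination, 2 in the GSK-LSD1, 3 in the ruxolitinib and 0 in the DMSO libraries, and no library had more than 2. The exons of Ciita share 329 bases with Dexi on the other strand, and whether reads were counted by strand is not given in the sources used here. Cells of BALB/c mice carry another H2 haplotype than the C57BL/6J genome of the builds named for these data, and the effect on H2 read counts was not tested. The class I genes H2-K1 and H2-D1, chosen for this comparison after their values were seen, were at 1816 to 2326 and at 1511 to 2011 normalised read counts over the 12 libraries.

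**Figure D1:**
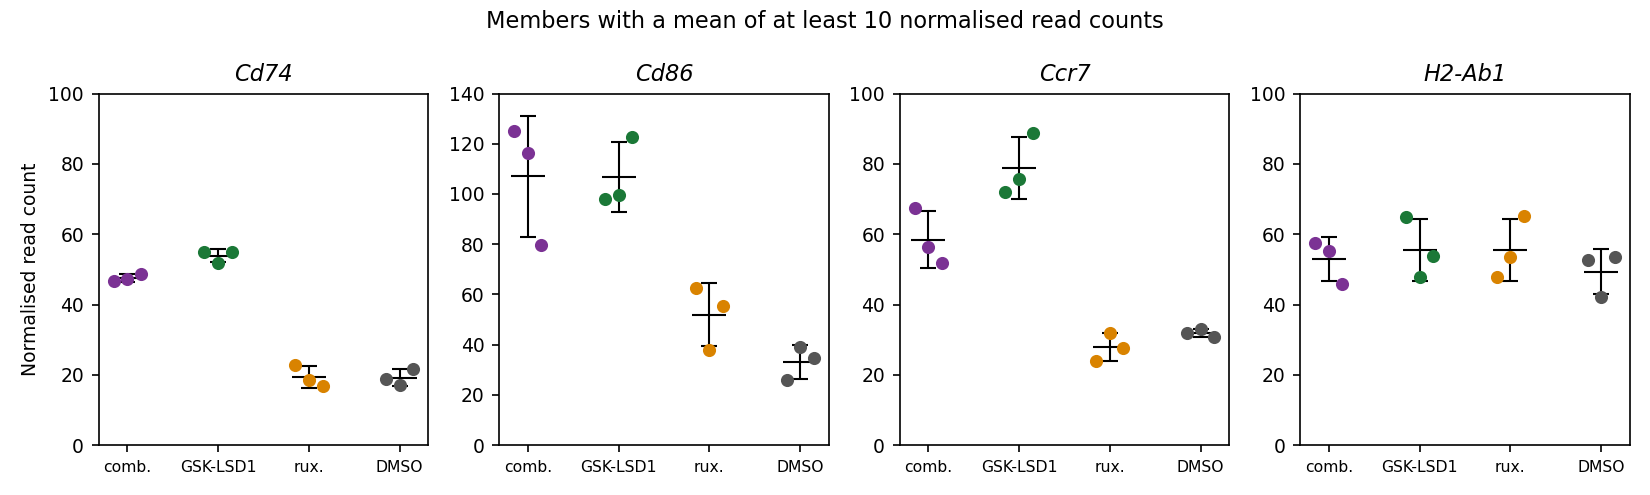
Normalised read counts (linear axes from 0) of the 4 tested genes in each library of the combination (comb.), GSK-LSD1, ruxolitinib (rux.) and DMSO groups, as points, with the group mean as a long bar and the SD as an error bar (n = 3 libraries). Cd74, Cd86 and Ccr7 stand higher in both groups with GSK-LSD1 than in DMSO, while H2-Ab1 has means of 52.8, 55.5, 55.5 and 49.4 in the 4 groups.

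**Figure D2:**
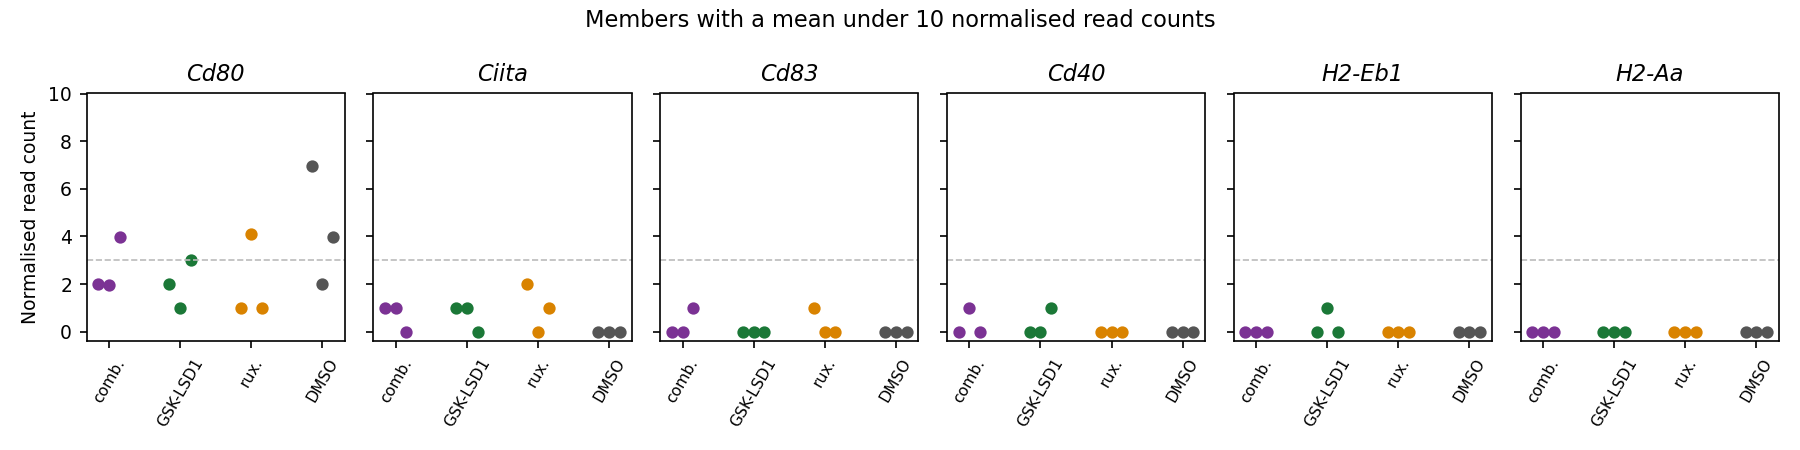
Normalised read counts (linear axis) of the 6 genes with a mean under 10, one point per library, in the combination (comb.), GSK-LSD1, ruxolitinib (rux.) and DMSO groups. The dashed line lies at 3, close to the limit that a count of 0 allows, and of these genes Cd80 alone has points above it.

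Cd86, a co-stimulatory protein that binds CD28 and CTLA4 on T cells (chromosome 16, 36603869 to 36666081, minus strand), had 125, 116 and 79.6 normalised read counts in the combination libraries, 97.9, 99.5 and 123 in the GSK-LSD1 libraries, 62.7, 38.0 and 55.3 in the ruxolitinib libraries and 25.8, 39.0 and 34.7 in the DMSO libraries. Both groups with GSK-LSD1 lay above all other libraries, and ruxolitinib replicate 2 overlapped the DMSO libraries. The log2 fold change was 1.67 ± 0.20 after GSK-LSD1 (limma adjusted p = 2.14e-06) and 1.65 ± 0.20 after the combination (limma adjusted p = 1.27e-06), or 3.18-fold after GSK-LSD1 and 3.15-fold after the combination. After ruxolitinib it was 0.62 ± 0.20, with a 95% interval of 0.20 to 1.04, which did not pass (limma adjusted p = 0.112). Without combination replicate 3 this value passed (limma adjusted p = 0.0467), and without both libraries that stood apart it was 0.83 (limma adjusted p = 0.00837).

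Cd80, the other ligand of CD28 and CTLA4 (chromosome 16, 38455561 to 38496335, plus strand), was seen in all 12 libraries at 0.988 to 6.95 normalised read counts. Its steps summed to 8 in the combination, 6 in the GSK-LSD1, 6 in the ruxolitinib and 13 in the DMSO libraries. Its mean of 2.74 was too low for a test, and the groups overlapped. Cd83, a maturation marker of dendritic cells, had 1 step in a combination and 1 in a ruxolitinib library. Cd40, the receptor by which T cell help reaches antigen-presenting cells, had 1 step in a combination and 1 in a GSK-LSD1 library. Thus 5 of the 10 genes stayed near zero, with a mean under 1 over the 12 libraries, which were Ciita, H2-Aa, H2-Eb1, Cd83 and Cd40.

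Ccr7, the receptor for the chemokines CCL19 and CCL21 (chromosome 11, 99144196 to 99155077, minus strand), had 67.4, 56.2 and 51.7 normalised read counts in the combination libraries, 71.9, 75.6 and 88.8 in the GSK-LSD1 libraries, 23.9, 31.9 and 27.7 in the ruxolitinib libraries and 31.8, 33.0 and 30.7 in the DMSO libraries. All libraries with GSK-LSD1 were above all without it, and every combination library was below every GSK-LSD1 library. The log2 fold change was 1.28 ± 0.17 after GSK-LSD1 (limma adjusted p = 9.95e-06) and 0.85 ± 0.17 after the combination (limma adjusted p = 0.000485), or 2.42-fold after GSK-LSD1 and 1.80-fold after the combination. After ruxolitinib it was -0.20, with a 95% interval of -0.56 to 0.16 (limma adjusted p = 0.587).

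Ruxolitinib alone was set against DMSO to ask what JAK inhibition does to these genes. Cd86 alone of the 4 had an unadjusted limma p under 0.05. The share of all genes under that value is not given for any comparison. None of the 4 passed by limma after adjustment, where 1.63% of all tested genes did. Of all genes, 115 were higher and 72 lower, a split that became 140 and 145 after a correction for GC content.

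**Figure D3:**
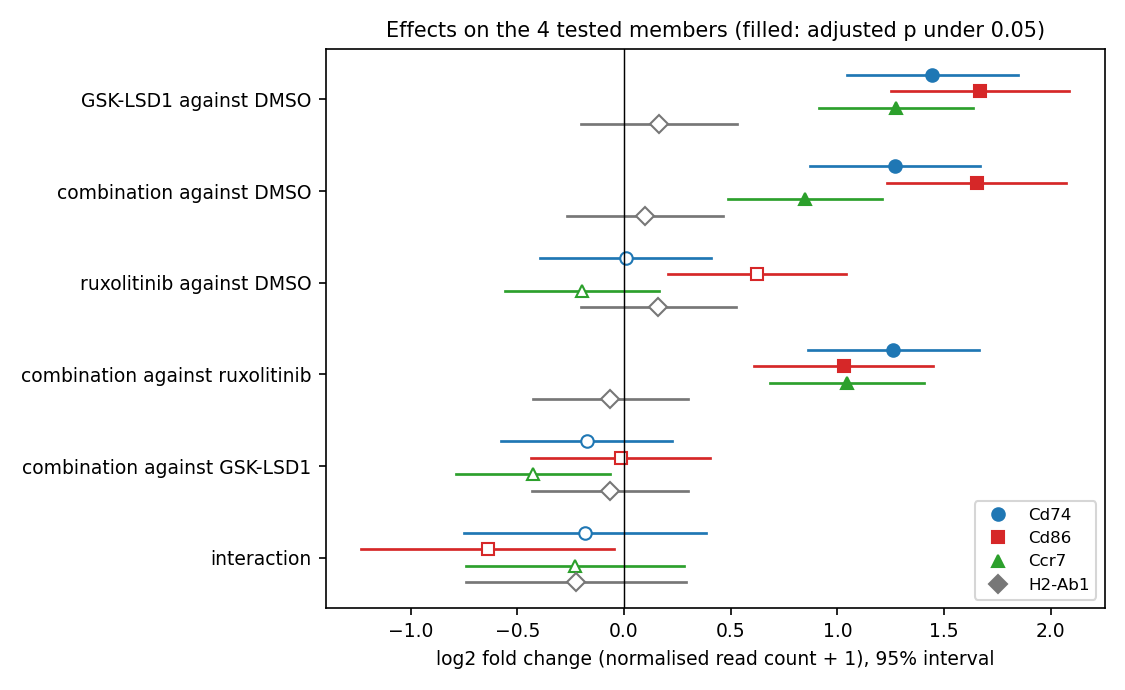
Log2 fold changes, on the scale of log2(normalised read count + 1), of the 4 tested genes in 6 contrasts, with 95% intervals from limma as lines. Filled symbols mark an adjusted p under 0.05, which Cd74, Cd86 and Ccr7 reach in the 3 contrasts that set GSK-LSD1 or the combination against DMSO or the combination against ruxolitinib.

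The combination was compared with each drug alone. Against ruxolitinib, 3 of the 4 genes were higher, where 31.6% of all tested genes passed and 16% were higher, and their libraries lay above those of ruxolitinib without overlap (19.3% of all tested genes). The log2 differences were 1.26 for Cd74 (limma adjusted p = 3.46e-05), 1.05 for Ccr7 (limma adjusted p = 9.04e-05) and 1.03 for Cd86 (limma adjusted p = 0.000499). Against GSK-LSD1, none passed by limma after adjustment, where 1.4% of all tested genes did. Among the 4, 1 had an unadjusted limma p under 0.05. The combination libraries lay below the GSK-LSD1 libraries without overlap for 2 of the 4, Cd74 and Ccr7 (9.33% of all tested genes). Of all genes, 121 were higher and 40 lower after the combination than after GSK-LSD1 (178 and 103 after the GC correction). The gene at an unadjusted p of 0.0225 by limma was Ccr7, whose difference was -0.43 with a 95% interval of -0.79 to -0.07 (limma adjusted p = 0.311). Cd74 differed by -0.18 (-0.58 to 0.22, limma adjusted p = 0.766) and Cd86 by -0.02 (-0.43 to 0.40, limma adjusted p = 0.986). The interaction sets the effect of the combination against the sum of both single effects, and it passed by limma for none of the 4 and for 0.00871% of all tested genes. The value for Cd86 was -0.64 (95% interval -1.23 to -0.05), at an unadjusted p of 0.0358 by limma, the single one of the 4 under 0.05, and an adjusted p of 1. The interaction was -0.23 for Ccr7, -0.23 for H2-Ab1 and -0.18 for Cd74. The limma F-test for any difference among the 4 treatments passed for Cd74, Cd86 and Ccr7 and for 42.8% of all tested genes, and for H2-Ab1 its adjusted p was 0.813.

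Levels were set per kilobase of the merged exons of all annotated transcripts of a gene, so a comparison between genes depends on these lengths. Cd74 averaged 28.3 normalised read counts per kb after the combination, 32.1 after GSK-LSD1, 11.5 after ruxolitinib and 11.4 after DMSO. H2-Ab1 averaged 20.6 after the combination, 21.6 after GSK-LSD1, 21.6 after ruxolitinib and 19.2 after DMSO, so that its level lay above that of Cd74 without GSK-LSD1 and below it with GSK-LSD1. Cd86 averaged 29.2 per kb after the combination, 29.1 after GSK-LSD1, 14.2 after ruxolitinib and 9.06 after DMSO. Ccr7 averaged 29.6 per kb after the combination, 39.8 after GSK-LSD1, 14.1 after ruxolitinib and 16.1 after DMSO. Cd80 lay far below these, at 0.714 per kb after the combination, 0.539 after GSK-LSD1, 0.548 after ruxolitinib and 1.16 after DMSO. The differences between these genes were not tested.

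**Figure D4:**
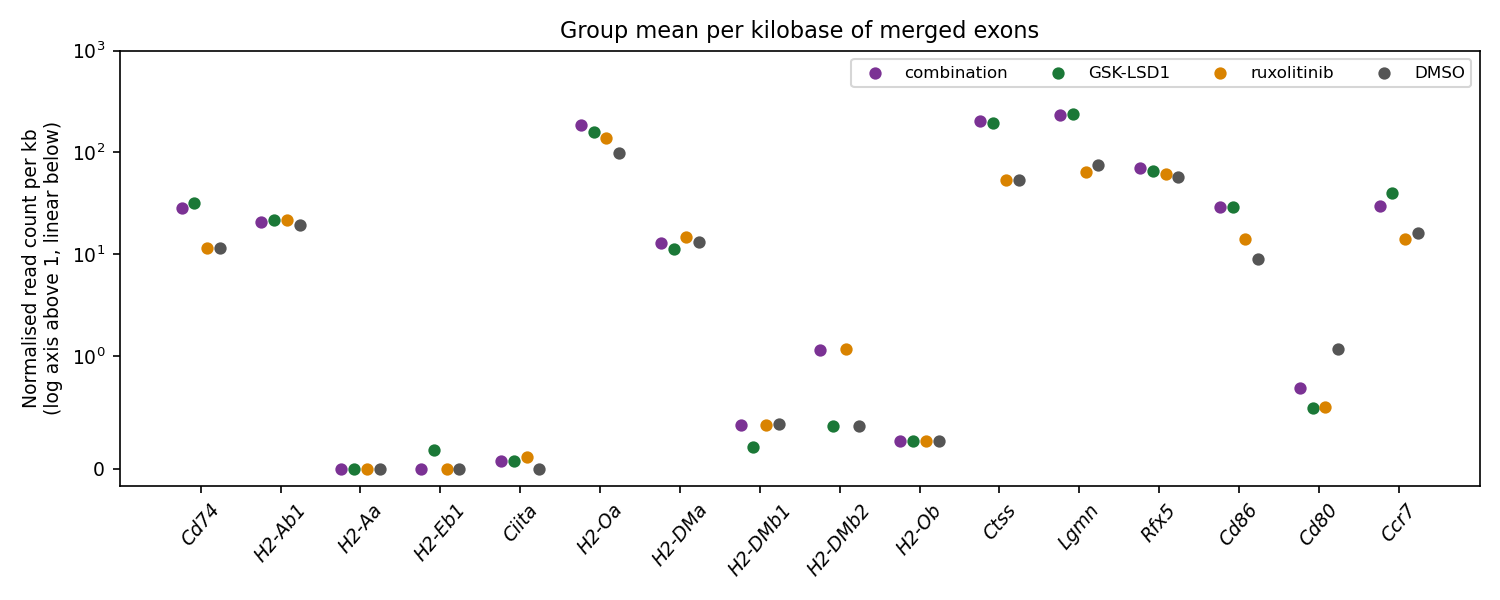
Group means in normalised read counts per kb of merged exons (logarithmic above 1, linear below it) of class II genes, their processing enzymes, Rfx5, Cd86, Cd80 and Ccr7 in the combination, GSK-LSD1, ruxolitinib and DMSO groups, as points. Of the class II chain genes shown, H2-Oa is highest, at 188, 158, 139 and 98.7 per kb, whereas H2-Aa is at 0.

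Among the accessory class II genes, H2-Oa passed in all 3 comparisons with DMSO. H2-Oa, the alpha chain of H2-O, which inhibits peptide loading by H2-DM (chromosome 17, 34092340 to 34095234, plus strand), had 263, 251 and 281 normalised read counts in the combination libraries, 215, 218 and 233 in the GSK-LSD1 libraries, 179, 219 and 188 in the ruxolitinib libraries and 121, 149 and 147 in the DMSO libraries. Each drug group lay above the DMSO libraries. The log2 fold change was 0.93 ± 0.10 after the combination (limma adjusted p = 4.52e-07), 0.68 ± 0.10 after GSK-LSD1 (limma adjusted p = 4.41e-05) and 0.49 ± 0.10 after ruxolitinib (limma adjusted p = 0.0197). The ruxolitinib call was lost without ruxolitinib replicate 2 (limma adjusted p = 0.109), without DMSO replicate 1 (limma adjusted p = 0.118) and without DMSO replicate 3 (limma adjusted p = 0.0613). With the compared groups only, this call was lost as well (limma adjusted p = 0.0609). The exons of H2-Oa share 321 bases with the antisense gene BC051537, and reads of the pair cannot be told apart without strand. Its partner chain H2-Ob had a mean of 1.33 and the peptide-loading chains H2-DMb1 and H2-DMb2 had means of 0.578 and 1.34. H2-DMa, the other chain of H2-DM, was at 29.9 to 58.6 normalised read counts and passed no comparison. Its exons share 360 bases with Brd2 on the other strand. H2-Eb2 had a mean of 0.251. H2-Ea-ps, which carries the name of a pseudogene, was at 0, and its status in BALB/c cells was not tested. Of this list 2 of the 7 genes found in the table were tested, and 1 rose after GSK-LSD1 (17% of all tested genes).

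The factors that bind the X and Y boxes were present in all groups. Of 8 genes including Ciita, 7 were tested. Among them, 1 rose and 1 fell after GSK-LSD1, where 32.5% of all tested genes passed in either direction. After the combination 2 rose and 1 fell, against 42.3% of all tested genes. The median log2 fold change of the 7 was 0.02 after GSK-LSD1 and -0.05 after the combination, close to that of all tested genes. Rfx5, a subunit of the X box complex, had a log2 fold change of 0.29 after the combination (limma adjusted p = 0.00598) and 0.22 after GSK-LSD1 (limma adjusted p = 0.0412). The exons of Rfx5 share 1471 bases with the antisense gene B230398E01Rik, whose reads cannot be told apart without strand. The GSK-LSD1 call was lost without GSK-LSD1 replicate 2 (limma adjusted p = 0.2), GSK-LSD1 replicate 3 (0.0741), DMSO replicate 1 (0.089), DMSO replicate 2 (0.0551) or DMSO replicate 3 (0.143), with a replicate block (0.0569) and with quantile normalisation (0.0564). Nfyb, a subunit of the Y box factor NF-Y, had -0.23 after the combination (limma adjusted p = 0.0177) and -0.20 after GSK-LSD1 (limma adjusted p = 0.0491). Nfya had 0.17 after the combination (limma adjusted p = 0.0269) and 0.10 after GSK-LSD1 (limma adjusted p = 0.202). The Nfyb call after GSK-LSD1 was lost without any single GSK-LSD1 or DMSO library and without combination replicate 1 or 2 (limma adjusted p = 0.0537 to 0.132). It was also lost with the replicate block (limma adjusted p = 0.0591), TMM scaling (0.0537), quantile normalisation (0.0616), the GC correction (0.0762) and no filter on level (0.0507). Its call after the combination was lost without combination replicate 3 (limma adjusted p = 0.0581), DMSO replicate 1 (0.0592) or DMSO replicate 3 (0.054), and with the GC correction (0.112). The Nfya call was lost without combination replicate 1 (limma adjusted p = 0.0616), combination replicate 2 (0.0604), DMSO replicate 2 (0.0824) or DMSO replicate 3 (0.0754). Rfxank and Nfyc passed no comparison, and neither did Rfxap and Creb1 with all 12 libraries and no GC correction. The exons of Rfxank share 1341 bases with Nr2c2ap on the other strand. With the GC correction, Creb1 was higher after the combination than after ruxolitinib (0.16, limma adjusted p = 0.0322). After the combination Rfxap had -0.25 (limma adjusted p = 0.169). Without combination replicate 3 it had -0.40 and passed (limma adjusted p = 0.0229), as it did without both libraries that stood apart (limma adjusted p = 0.0128). Against ruxolitinib, Rfxap was lower and Creb1 higher after the combination without combination replicate 3 (limma adjusted p = 0.0132 for Rfxap and 0.0088 for Creb1) and without both libraries (limma adjusted p = 0.00775 for Rfxap and 0.0342 for Creb1).

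Genes for the lysosomal machinery that prepares class II ligands were counted next. Of 10 antigen processing genes, all tested, 6 rose after GSK-LSD1 and 7 after the combination, and none fell against DMSO. None passed after ruxolitinib. An unadjusted limma p under 0.05 was seen there for 4, and the share of all genes under that value is not given. Of all tested genes, 17% rose after GSK-LSD1, 20.5% rose after the combination and 1.63% passed after ruxolitinib in either direction. The median log2 fold change was 0.21 after GSK-LSD1 and 0.28 after the combination. Ctss, cathepsin S, which removes the invariant chain in antigen-presenting cells, had 267, 294 and 273 normalised read counts in the combination libraries, 239, 270 and 289 in the GSK-LSD1 libraries, 67.7, 90.4 and 61.3 in the ruxolitinib libraries and 78.5, 68.0 and 73.3 in the DMSO libraries. The groups with GSK-LSD1 were separate from the others. Its log2 fold change was 1.91 ± 0.13 after the combination (limma adjusted p = 2.57e-10) and 1.84 ± 0.13 after GSK-LSD1 (limma adjusted p = 5.8e-10). Lgmn, the lysosomal protease legumain, had 1.62 after the combination and 1.64 after GSK-LSD1. Psap, the precursor of lysosomal saposins, had 1.09 after the combination and 0.69 after GSK-LSD1. Ctsl, cathepsin L, had 0.45 after the combination and 0.35 after GSK-LSD1, and all of these passed. The exons of Ctsl share 1742 bases with an antisense gene and 395 bases with a pseudogene on the same strand.

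**Figure D5:**
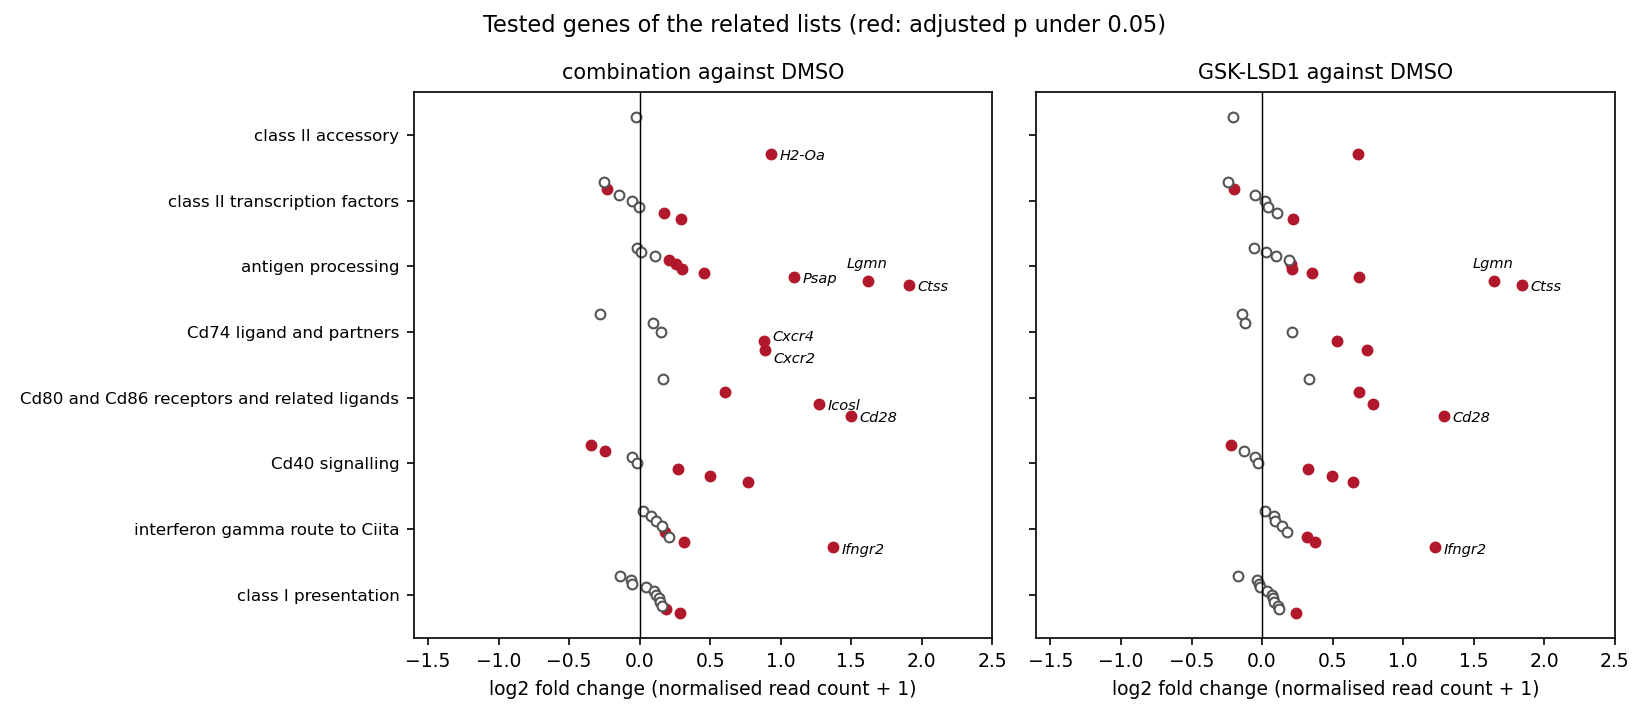
Log2 fold changes, on the scale of log2(normalised read count + 1), of the tested genes of 8 lists related to the 10 genes, after the combination and after GSK-LSD1 against DMSO. Red points passed at an adjusted p under 0.05. The antigen processing list has the 2 largest rises shown, Ctss and Lgmn.

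Receptors and ligands that meet the products of the 10 genes were counted in the same way. The 5 genes for the ligands and partner receptors of Cd74 were all tested. Their median log2 fold change was 0.21 after GSK-LSD1 and 0.15 after the combination. Among them, 2 rose after GSK-LSD1 (17% of all tested genes) and 2 after the combination (20.5%). They were Cxcr4 (0.88 ± 0.07 after the combination, 0.53 ± 0.07 after GSK-LSD1) and Cxcr2 (0.89 ± 0.17 after the combination, 0.75 ± 0.17 after GSK-LSD1), both chemokine receptors. Mif, the ligand of CD74, did not pass after the combination (-0.28, limma adjusted p = 0.258), with 217, 218 and 472 normalised read counts in the combination libraries and 372, 296 and 366 in the DMSO libraries. Without combination replicate 3 the difference was -0.65 (limma adjusted p = 0.000115). Mif is named after its values were seen.

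There were 4 tested genes among the receptors of Cd80 and Cd86 and related ligands. Of these, 3 rose after GSK-LSD1 (17% of all tested genes) and 3 after the combination (20.5%). The median log2 fold change of the 4 was 0.74 after GSK-LSD1 and 0.94 after the combination. Cd28, the receptor for Cd86 on T cells, had 35.7, 23.7 and 37.8 normalised read counts in the combination libraries, 24.0, 32.8 and 25.9 in the GSK-LSD1 libraries, 16.9, 11.3 and 9.88 in the ruxolitinib libraries and 10.9, 11.003 and 9.90 in the DMSO libraries. All libraries with GSK-LSD1 were above the others, and Cd28 had a log2 fold change of 1.498 after the combination (limma adjusted p = 0.000117) and 1.29 after GSK-LSD1 (limma adjusted p = 0.00086). Icosl, the ligand of ICOS, had a log2 fold change of 1.27 after the combination and 0.79 after GSK-LSD1. The value after GSK-LSD1 did not pass without GSK-LSD1 replicate 2 (limma adjusted p = 0.055), and with quantile normalisation it was 0.51 (limma adjusted p = 0.0813). Cd274, which encodes PD-L1, had 0.60 after the combination and 0.69 after GSK-LSD1. The exons of Cd274 share 511 bases with an antisense gene.

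Of 7 tested genes of Cd40 signalling, 3 rose and 1 fell after GSK-LSD1, where 32.5% of all tested genes passed in either direction. After the combination 3 rose and 2 fell, against 42.3% of all tested genes. The median log2 fold change of the 7 was -0.03 after GSK-LSD1 and -0.02 after the combination. Cd40 was near zero, and the gene of its ligand, Cd40lg, was at 0 in all libraries. Map3k14, the kinase of the noncanonical NF-kB pathway, had 0.76 after the combination and 0.64 after GSK-LSD1, and it shares 135 exon bases with 1700028N14Rik on the same strand. Relb, a subunit of NF-kB, had 0.50 after the combination and 0.49 after GSK-LSD1. Relb did not pass after GSK-LSD1 without GSK-LSD1 replicate 3 (limma adjusted p = 0.0758) or DMSO replicate 3 (0.0715). After the combination it did not pass without combination replicate 3 (limma adjusted p = 0.0806), DMSO replicate 3 (0.0526) or both libraries that stood apart (0.0723). With quantile normalisation it had 0.27 after the combination (limma adjusted p = 0.163) and 0.29 after GSK-LSD1 (limma adjusted p = 0.166). Birc3, a ubiquitin ligase of that pathway, had 0.27 after the combination and 0.33 after GSK-LSD1, and without DMSO replicate 1 neither passed (limma adjusted p = 0.106 after the combination and 0.0537 after GSK-LSD1). Traf3, which holds MAP3K14 protein low, had -0.35 after the combination and -0.22 after GSK-LSD1, and the value after GSK-LSD1 did not pass without DMSO replicate 2 (limma adjusted p = 0.0512).

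The genes of the CCR7 ligands Ccl19, Ccl21a and Ccl21b were at 0 in all libraries. Of 8 tested genes on the interferon gamma route to Ciita, 3 rose after GSK-LSD1 (17% of all tested genes) and 3 after the combination (20.5%). The median log2 fold change of the 8 was 0.16 after GSK-LSD1 and 0.17 after the combination. Ifngr2, a chain of the interferon gamma receptor, had 1.37 after the combination and 1.23 after GSK-LSD1. Irf1, a factor that acts on the Ciita promoter, had 0.31 after the combination and 0.37 after GSK-LSD1. The exons of Irf1 share 135 bases with Gm17334 on the other strand. Socs1, an inhibitor of the pathway, had 0.21 after the combination (limma adjusted p = 0.0649) and 0.32 after GSK-LSD1 (limma adjusted p = 0.0082). The value after the combination passed without combination replicate 1 (limma adjusted p = 0.0209), ruxolitinib replicate 1 (0.0401) or ruxolitinib replicate 2 (0.0392), with quantile normalisation (0.0244) and with the compared groups only (0.049). Ifng itself was at 0.

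Markers of cell types that could carry these genes were set beside the results. Summed over 16 defining markers, the level of dendritic cell markers was 867 to 1057 normalised read counts in the combination libraries, 939 to 982 in the GSK-LSD1 libraries, 729 to 822 in the ruxolitinib libraries and 815 to 849 in the DMSO libraries, most of it from Id2 and Tcf4. Irf8, a factor of dendritic cells and monocytes named after its values were seen, rose by 1.47 after the combination and 1.05 after GSK-LSD1 on the log2 scale. Of the 3 tested markers, Irf8 and Id2 passed in both comparisons and Tcf4 in neither. Id2 had 0.23 after the combination and 0.28 after GSK-LSD1. Without DMSO replicate 1 neither value of Id2 passed (limma adjusted p = 0.12 after the combination and 0.0623 after GSK-LSD1). The value after the combination also did not pass without combination replicate 1 (limma adjusted p = 0.0922), combination replicate 2 (0.112) or DMSO replicate 3 (0.0566). The 8 macrophage markers summed to 291 to 332 in the combination, 249 to 286 in the GSK-LSD1, 140 to 167 in the ruxolitinib and 136 to 183 in the DMSO libraries. Among them C1qb was at 0, and of 3 tested markers 2 rose after GSK-LSD1 and 3 after the combination. Of all tested genes, 17% rose after GSK-LSD1 and 20.5% after the combination. B cell markers summed to 3.08 to 8.99 over all libraries, with Ms4a1 and Pax5 at 0. T and NK cell markers summed to 110 to 145 normalised read counts, with Zap70 and Ncr1 at 0. Of their 2 tested markers, 1 rose after GSK-LSD1 and none after the combination. The 6 markers of stroma and endothelium summed to 3823 to 3866 in the combination, 3571 to 3817 in the GSK-LSD1, 2916 to 3381 in the ruxolitinib and 2988 to 3073 in the DMSO libraries. Most of this came from few genes, since 2 of the 6 had a mean of at least 10 and 3 a mean under 1, with Cxcl12 and Cdh5 at 0. Of the 2 tested, 2 rose after GSK-LSD1 and 1 after the combination. The 8 markers of the labelled cells, myeloid progenitors and granulocytes, summed to 17320 to 19369 in the combination, 11013 to 11297 in the GSK-LSD1, 14551 to 19878 in the ruxolitinib and 11727 to 12155 in the DMSO libraries. Of these 8, 2 rose and 4 fell after GSK-LSD1, 3 rose and 1 fell after the combination, and 4 rose after ruxolitinib. Of all tested genes, 32.5% passed in either direction after GSK-LSD1, 42.3% after the combination and 1.63% after ruxolitinib. The part of these cells in the levels of Cd74, Cd86 and Ccr7 was not tested.

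Genes with the pattern most like each gene were found by the largest absolute difference over its 3 log2 differences from DMSO, among 4276 genes that passed the F-test and had a mean of at least 50. Nearest to Cd74 were Slc37a3 (0.08), Capn2 (0.11) and Myct1 (0.15). Nearest to Ccr7 were Il2rb (0.12), Slc8a1 (0.14) and Akap6 (0.17). Nearest to Cd86 were Ceacam16 (0.20), L1cam (0.34) and Slc26a11 (0.34), so that fewer genes lay close to the pattern of Cd86, which includes its difference after ruxolitinib.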

How the data were processed

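RNA was sequenced from 12 libraries, 3 per treatment. The authors deposited a normalised signal per gene and library, here called normalised read count. Per the submitters' processing notes, STAR, DESeq2 and the builds mm10 and GRCm38 were used, with no versions or roles; annotation, counting and strand are not given in the sources used here. The deposited values hold an added constant of 1e-05, which was taken off. The values were not turned back into whole reads, and no count test was run. The program limma (3.58.1, R 4.3.3) was fitted to log2(value + 1) with a variance trend, a mean per treatment and 8 residual degrees of freedom, on genes with a mean of at least 10. Fold changes on this scale understate low genes. P-values were adjusted by Benjamini-Hochberg over all tested genes, with 0.05 as the threshold. The fit was also run on simulated counts with a fixed spread setting and no deviating libraries. Its outcome there is not given, so that run says nothing of these data. Named genes were all 10, all class II accessory and factor genes, and up to 4 per other list with the smallest p after GSK-LSD1. The genes and lists were chosen with earlier results of these data known. Gene positions are from the GRCm38 annotation, matched by symbol. A result of the list of chemokine receptors is not reported here.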

Additional observations from a re-analysis of the deposited data

How the results depend on the processing

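Across 22 alternatives (pseudocounts of 0.25 and 5, a mean of at least 50 or no filter on level, scaling by TMM or quantiles, a GC correction, a replicate block, each library left out in turn, both deviating libraries left out, the compared groups only), no direction of a called gene turned. For the 4 tested genes, 509 values kept their side of the threshold and 3 newly passed, all for Cd86 after ruxolitinib. With a mean of at least 50, Cd74 and Ccr7 were not tested by construction, and 1 of the genes passed in place of 3 for GSK-LSD1 and the combination against DMSO, the combination against ruxolitinib and the F-test. After ruxolitinib, 1 passed in place of 0 with the GC correction (Cd86, 0.70, limma adjusted p = 0.0411) and without ruxolitinib replicate 2 and combination replicate 3; leaving out single libraries gave 0 to 1. The cause was not tested.

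With the replicate block, 3 of the genes passed for GSK-LSD1, for the combination and for the combination against ruxolitinib, and 0 for ruxolitinib, the combination against GSK-LSD1 and the interaction. Same-numbered libraries did not deviate together (r = -0.148 to 0.15 over 18 pairs, 1 above 0.1), and a library correlated best with its own number in 12 of 36 cases.

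Over all genes, the 187 called after ruxolitinib became 98 without a filter, 112 with the replicate block, 285 with the GC correction, 317 without both deviating libraries, 82 with the compared groups only and 32 to 551 with single libraries left out. The 161 for the combination against GSK-LSD1 became 281 with the GC correction, 270 without both deviating libraries and 83 to 226 with single libraries left out, and the 1 interaction gene 0 to 3. With levels of 0 to 7 steps per library, small changes of the 6 low genes could not be seen.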

Other observations

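Genes of class I antigen presentation were counted as well. Of 12 genes, 11 were tested, and 1 rose after GSK-LSD1 (17% of all tested genes) and 2 after the combination (20.5%). The median log2 fold change of the 11 was 0.07 after GSK-LSD1 and 0.11 after the combination. Tapbp, the tapasin that loads peptides onto class I, had 0.29 after the combination (limma adjusted p = 0.000643) and 0.24 after GSK-LSD1 (limma adjusted p = 0.004). Its exons share 904 bases with an antisense gene and 149 bases with Zbtb22.

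Icos, a co-stimulatory receptor of T cells whose ligand gene Icosl is described above, had a mean too low for a test. It had 6.94, 8.88 and 8.95 normalised read counts in the combination libraries, 15.99, 19.9 and 14.96 in the GSK-LSD1 libraries, 0.995, 0 and 0.988 in the ruxolitinib libraries and 1.99, 3.001 and 1.98 in the DMSO libraries. The libraries of the 4 groups did not overlap, but those of ruxolitinib and DMSO were at or under 3 steps, the limit that a count of 0 allows. Icos was chosen after its values were seen.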
